A study of Homo sapiens with 9 samples.

Results

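The genes described here were 10 transcription factors of the ETS family, ETV1, ETV4, ETV5, ETV6, ETS1, ETS2, ELK1, ELK3, ELF1 and GABPA, in U251 cells after knockdown of PTBP1. They were taken from the expression table by their gene symbols. All 10 were found among its 22295 entries and all 10 were among the 15551 genes tested. The question was whether the rise of ETV1, ETV4 and ETV5 at 7 days was limited to these genes, which form the PEA3 group, or was shared by other ETS factors. ETV1, ETV4 and ETV5 had been picked as candidates by the study from these same libraries, so their rise is not independent evidence.

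U251 cells are an established line from a human glioblastoma. The cells carried no labelled allele, and all had been infected with a lentivirus. The group sh-Luci-3d received a control sh-RNA against luciferase and was collected at 3 days, whereas sh-Ptbp1-3d and sh-Ptbp1-7d received an sh-RNA against PTBP1 and were collected at 3 and 7 days. Each group had 3 libraries. In the study, neuronal induction medium, which held forskolin and dorsomorphin, was used from day 2 after infection. No sh-Luci library of 7 days was analysed here, so the added days, the time in this medium and the knockdown cannot be told apart in any comparison with sh-Ptbp1-7d. Nothing in the labels says that the 3 libraries of a group came from separate cultures, and the p-values measure only the spread between these samples.

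ETS factors share a DNA-binding domain, the ETS domain, which reads a GGAA core in promoters and enhancers. ETV1, ETV4 and ETV5 are activators that serve as nuclear endpoints of receptor tyrosine kinase and ERK signaling, and their own transcription is held down by the repressor CIC until ERK signaling relieves it. In the nervous system they are known from the fate and maturation of neurons and from the growth of glial progenitors. ETS1 and ETS2 are activators whose proteins are phosphorylated by ERK, ELK1 and ELK3 are ternary complex factors that work with SRF on immediate early genes, ETV6 is a repressor, ELF1 is an activator known from blood cells, and GABPA is the DNA-binding subunit of GABP at promoters of mitochondrial and housekeeping genes.

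The promoters of the members were read for motifs of these regulators, because ETV1 is a gene that CIC can repress. RefSeq promoters on GRCh38.p14, each from 250 bases before to 50 bases after a start site, were at hand for 7 of the 10 members, with 16 promoters in all. Those of ETV4, ETV5 and ETS1 were not among them. Both strands were searched for 4 octamers that CIC binds (TGAATGAA, TGAATGGA, TCAATGAA and TCAATGGA), for the longer ETS motif CCGGAAGT, which contains the GGAA core, and for the cAMP response element TGACGTCA. The windows of ETV1 and GABPA shown here were the member windows that held 1 of these 8-base motifs, in capitals. The ETV1 window (chr7:13991376-13991675, minus strand) held TGAATGGA 125 bases upstream of the start, and the GABPA window (chr21:25734722-25735021, plus strand) held CCGGAAGT on its other strand, 67 bases upstream.
ETV1: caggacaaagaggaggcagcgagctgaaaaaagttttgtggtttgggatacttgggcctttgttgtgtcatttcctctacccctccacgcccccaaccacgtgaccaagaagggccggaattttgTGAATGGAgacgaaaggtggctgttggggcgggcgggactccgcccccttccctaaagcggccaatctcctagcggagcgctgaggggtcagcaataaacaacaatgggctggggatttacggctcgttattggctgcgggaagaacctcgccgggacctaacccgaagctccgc
GABPA: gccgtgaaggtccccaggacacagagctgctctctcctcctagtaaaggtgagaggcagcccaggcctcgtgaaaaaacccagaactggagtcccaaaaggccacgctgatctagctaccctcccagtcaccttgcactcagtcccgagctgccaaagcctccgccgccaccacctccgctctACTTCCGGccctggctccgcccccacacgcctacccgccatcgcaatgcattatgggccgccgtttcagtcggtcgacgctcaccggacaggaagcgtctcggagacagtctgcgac
TGAATGGA was found in 1.03% of all 35116 promoters and any of the 4 CIC octamers in 3.77%. CCGGAAGT was found in 4.14% of them. The cAMP response element was in 0 of the 16 member promoters and in 1.85% of all promoters. The bare GGAA core was in 95.5% of all promoters, with a median of 3 matches. Member windows ranged from 0 matches for ELF1 (chr13:40982233-40982532) to 8 for ELK3 (chr12:96255248-96255547). These matches describe letters only.

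The libraries were checked before the members were compared. PTBP1, the targeted gene, was at 115.7 ± 7.58 FPKM under sh-Luci-3d and fell to 63.9 ± 2.67 at 3 days and 50.5 ± 0.645 at 7 days of knockdown (SD, n = 3 each), where FPKM counts fragments per length of transcript and per number of mapped fragments. Its log2 fold change at 3 days was -0.85, with a limma adjusted p of 0.00314, of 0.0821 when only the libraries of both groups were fitted, and of 0.0579 without sh-Ptbp1-3d replicate 3. Of the glioma and astroglial markers, VIM, SOX2 and NES were present in every library, while GFAP stayed at or below 1.15 FPKM and AQP4 was near 0. The summed level of this list was 4420 to 4540 FPKM in sh-Luci-3d, 4530 to 4840 in sh-Ptbp1-3d and 1360 to 1480 in sh-Ptbp1-7d. The drop in this sum came largely from VIM, and the list did not fall as a whole. Of its 7 tested genes, 2 rose and 2 fell at 7 days (limma, FDR below 0.01 and fold change of 2). These counts held against sh-Ptbp1-3d, where 8.31% of all genes rose and 5.90% fell past both thresholds. They also held against sh-Luci-3d, where the shares of all genes were 8.93% and 5.68%. The sum of 12 blood cell markers did not exceed 1.36 FPKM and that of 7 endothelial markers did not exceed 0.906 FPKM in any library. The 8 neuronal markers summed to 271 to 320, 341 to 368 and 164 to 170 FPKM in the order of the groups. Most of each sum came from 1 value per library, of up to 297, 322 and 127 FPKM. By an FDR below 0.01 in limma, 1 of 7 tested markers was higher and 1 lower in sh-Ptbp1-7d than in sh-Ptbp1-3d. Against sh-Luci-3d 2 were higher and 1 lower. The shares of all genes were 20.3% and 15.5%, and 20.6% and 15.0%. The neuronal gene STMN2 was at 11.5 FPKM in sh-Ptbp1-3d replicate 3 and listed at 0 in the other 8 libraries, and NEUROD6 was at 6.03 FPKM in that library and at 0 elsewhere. In sh-Luci-3d replicate 3 the median gene differed by 0.282 on the log2 scale from the other two libraries of its group, against 0.113 to 0.177 in the other 8 libraries. The part of these differences in the results below was not tested, and results were also fitted without each library.

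All members were expressed in the control cells, and none of the 10 passed the test at 3 days. Comparing sh-Ptbp1-3d to sh-Luci-3d, 0 of 10 members passed a fold change of 2 with an FDR below 0.05 in limma, 0 passed the FDR alone, and 0 had an unadjusted p under 0.05. Of all genes tested, 0.0129% passed both thresholds and 0.0322% passed the FDR alone, and 1126 of 15551 had an unadjusted p under 0.05 in limma. These calls depended on sh-Luci-3d replicate 3, the library that stood apart. Without it 57 genes passed both thresholds and 986, or 6.34%, passed the FDR alone, while the other 8 removals of a single library gave 0 to 2 and 0 to 5 genes. In that fit 0 of the 10 members passed the FDR, with limma adjusted p-values of 0.0586 for ELK1 and 0.0779 for ETV4 as the lowest, and ERF, an ETS gene outside the members, passed it (log2 fold change 0.44, limma adjusted p = 0.0241, against 0.803 with all libraries). The libraries of both groups did not overlap for 1 of 10 members, ETV5, which was slightly lower in sh-Ptbp1-3d (log2 fold change -0.12, limma adjusted p = 0.801), and for 10.8% of all genes tested. The log2 fold changes of the members lay between -0.31 for ETV1 and 0.32 for ETV4, with a median of -0.06 beside 0.01 for all genes.

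At 7 days the PEA3 group rose and ETS1 and ETS2 fell. Comparing sh-Ptbp1-7d to sh-Ptbp1-3d, 5 of 10 members passed a fold change of 2 with an FDR below 0.01, of which 3 were higher and 2 lower. Of all genes tested, 8.31% passed in the upward and 5.90% in the downward direction. By the FDR alone 4 members were higher and 2 lower, beside 20.3% and 15.5% of all genes. The libraries did not overlap for 5 members that were higher and 3 that were lower, where 35.3% and 27.0% of all genes did so, and lack of overlap was therefore common in this comparison. Against sh-Luci-3d the same thresholds were passed by 3 members upward and 2 downward, beside 8.93% and 5.68% of all genes, and the FDR alone by 4 and 2, beside 20.6% and 15.0%. Under quantile normalization 1092 genes were higher and 1121 lower past both thresholds against sh-Luci-3d, in place of 1388 and 883, and by the FDR alone 2721 and 2979, in place of 3209 and 2331, while the members stayed at 3 and 2 past both. These comparisons share the sh-Ptbp1-7d libraries, and the first shares those of sh-Ptbp1-3d with the comparison at 3 days, so they are not separate evidence. For a single gene the smallest two-sided p that an exact permutation test of 3 libraries against 3 can reach is 0.1, and the adjusted p of limma over all 15551 genes is therefore given. Fold changes were taken on log2(FPKM + 0.1), where the changes of weakly expressed genes come out too small.

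**Figure D1:**
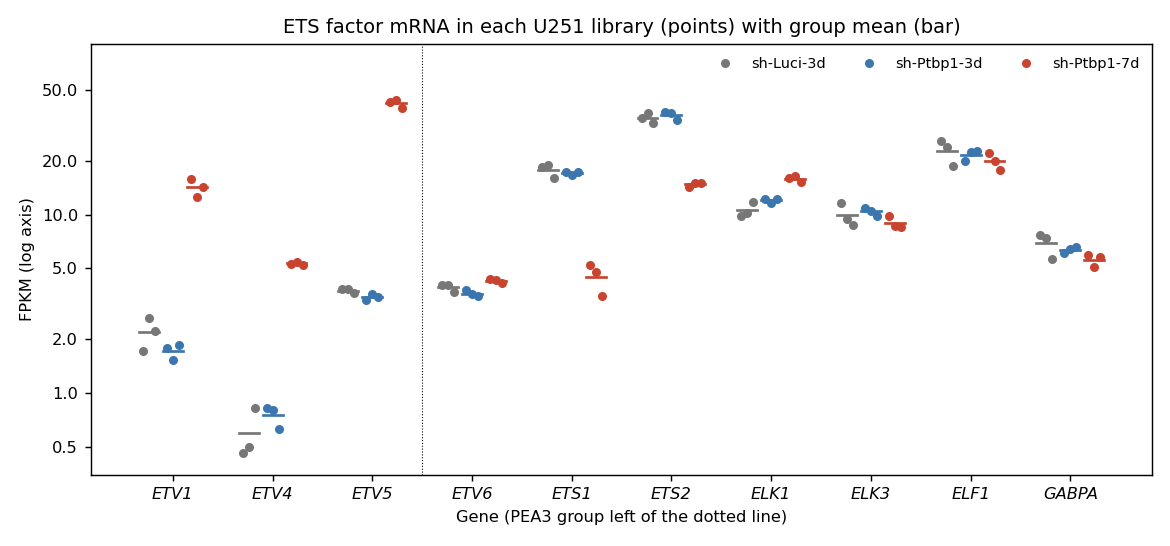
FPKM of the 10 ETS factors on a log axis, with 1 point for each library, coloured by group, and a bar at the mean of each group. The 3 sh-Ptbp1-7d libraries lie far above the others for ETV1, ETV4 and ETV5, below them for ETS1 and ETS2, and closer to them for the other 5 genes.

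ETV5, which in the brain is known from neural progenitors and gliogenesis, showed the largest rise of the 10 members. This gene lies on the minus strand of chromosome 3 from 186046308 to 186110318 (GRCh38). Its FPKM was 3.81, 3.83 and 3.63 for sh-Luci-3d, 3.35, 3.57 and 3.45 for sh-Ptbp1-3d and 42.7, 43.6 and 39.4 in sh-Ptbp1-7d. The 6 libraries of 3 days thus lay close together and far below the 3 libraries of 7 days. The rise over sh-Ptbp1-3d was 11.8-fold (log2 fold change 3.56, standard error 0.0854, limma adjusted p = 1.05e-09), and over sh-Luci-3d the log2 fold change was 3.44. Among the log2 fold changes of the 15551 genes tested that over sh-Ptbp1-3d ranked 65 from the top. Its exons share 164 bases, 2.83% of its exonic length, with DGKG on the same strand, whose mean was 1.59 FPKM for sh-Ptbp1-3d and 2.43 FPKM for sh-Ptbp1-7d.

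ETV1, a factor known from the maturation of several kinds of neurons, lies on the minus strand of chromosome 7 from 13891228 to 13991425. It was at 1.73, 2.63 and 2.22 FPKM for sh-Luci-3d, 1.79, 1.53 and 1.85 FPKM for sh-Ptbp1-3d and 15.9, 12.5 and 14.2 FPKM for sh-Ptbp1-7d. The libraries of both 3-day groups overlapped, and the lowest library of 7 days stood well above the highest of them. The rise over sh-Ptbp1-3d was 7.81-fold (log2 fold change 2.96, standard error 0.161, limma adjusted p = 1.78e-07), and the log2 fold change over sh-Luci-3d was 2.65. It ranked 110 among all genes. The CIC octamer shown above lies in the window of its most upstream start site among the 6 RefSeq promoters at hand.

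ETV4, known from motor and sensory neuron subtypes, lies on the minus strand of chromosome 17 from 43527844 to 43579620 and was the scarcest member in both 3-day groups. Its values were 0.465, 0.501 and 0.831 FPKM for sh-Luci-3d, 0.832, 0.808 and 0.631 FPKM for sh-Ptbp1-3d and 5.29, 5.43 and 5.25 FPKM for sh-Ptbp1-7d. Here too only the 7-day libraries stood apart. The rise over sh-Ptbp1-3d was 6.36-fold (log2 fold change 2.67, standard error 0.204, limma adjusted p = 2.13e-06), with rank 152, and the log2 fold change over sh-Luci-3d was 2.99. At its low level in the 3-day libraries the log2 fold change depended on the pseudocount and fell to 1.85 with 1 FPKM added in place of 0.1. The exons of ETV4 share 68 bases, 1.89% of its exonic length, with DHX8 on the opposite strand. DHX8 averaged 22.1 FPKM for sh-Ptbp1-3d and 22.2 FPKM for sh-Ptbp1-7d. The strand setting of the counting is not given, so DHX8 reads may be part of the low ETV4 values. Without sh-Ptbp1-3d replicate 3 the log2 fold changes of ETV5, ETV1 and ETV4 were 3.56, 3.01 and 2.56.

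ETS1 and ETS2 moved the other way. ETS1 lies on the minus strand of chromosome 11 from 128458761 to 128587558 and is an activator known from invasion and vessel growth. It was at 18.5, 18.9 and 16.0 FPKM for sh-Luci-3d, 17.3, 16.5 and 17.3 FPKM for sh-Ptbp1-3d and 5.22, 4.78 and 3.50 FPKM for sh-Ptbp1-7d. All 3 libraries of 7 days were below the 6 others, and ETS1 was 3.77-fold lower than in sh-Ptbp1-3d (log2 fold change -1.92, standard error 0.137, limma adjusted p = 1.31e-06). ETS2 lies on the plus strand of chromosome 21 from 38805307 to 38824955 and was the most abundant ETS factor at 3 days. It was at 34.5, 36.8 and 32.5 FPKM for sh-Luci-3d, 37.4, 37.1 and 33.6 FPKM for sh-Ptbp1-3d and 14.3, 15.0 and 15.1 FPKM for sh-Ptbp1-7d. It was 2.42-fold lower than in sh-Ptbp1-3d (log2 fold change -1.28, standard error 0.0793, limma adjusted p = 4.5e-07), again with no overlap between the groups. Against sh-Luci-3d the log2 fold changes were -1.97 for ETS1 (limma adjusted p = 1.05e-06) and -1.22 for ETS2 (limma adjusted p = 6.31e-07).

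The ternary complex factors differed from each other. ELK1 (the X chromosome, 47635521 to 47650604) was at 9.76, 10.3 and 11.8 FPKM for sh-Luci-3d, 12.3, 11.6 and 12.3 FPKM for sh-Ptbp1-3d and 15.9, 16.3 and 15.3 FPKM for sh-Ptbp1-7d. The 7-day libraries were the highest, but the rise over sh-Ptbp1-3d was 1.31-fold (log2 fold change 0.39, standard error 0.0899, limma adjusted p = 0.00415, 95% interval 1.14- to 1.51-fold), so that ELK1 passed the FDR and not the fold threshold. It failed the FDR in 7 of 20 alternatives, with an adjusted p of up to 0.0214. These were median-ratio scaling, quantile normalization and the fits without any 1 of the sh-Ptbp1-3d libraries or without sh-Ptbp1-7d replicate 1 or 2. Against sh-Luci-3d it passed the FDR in all 20 (log2 fold change 0.58, limma adjusted p = 0.000336). ELK3 (chromosome 12, 96194382 to 96269835) was at 11.6, 9.44 and 8.69 FPKM for sh-Luci-3d, 10.9, 10.5 and 9.79 FPKM for sh-Ptbp1-3d and 9.83, 8.62 and 8.57 FPKM for sh-Ptbp1-7d. Its groups overlapped, and a difference was not detected (log2 fold change -0.21, limma adjusted p = 0.162, 95% interval 0.724- to 1.03-fold).

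The remaining 3 members did not pass the FDR in either comparison with sh-Ptbp1-7d. ETV6 (chromosome 12, 11649854 to 11895402) was at 4.04, 4.02 and 3.67 FPKM for sh-Luci-3d, 3.77, 3.59 and 3.49 FPKM for sh-Ptbp1-3d and 4.35, 4.31 and 4.15 FPKM for sh-Ptbp1-7d. Its 7-day libraries were the highest by a narrow margin (log2 fold change over sh-Ptbp1-3d 0.24, limma adjusted p = 0.0743, 95% interval 1.01- to 1.38-fold), and over sh-Luci-3d its log2 fold change of 0.12 turned to -0.04 under quantile normalization. ELF1 (chromosome 13, 40932028 to 41061440) was at 25.7, 23.9 and 18.7 FPKM for sh-Luci-3d, 19.9, 22.5 and 22.5 FPKM for sh-Ptbp1-3d and 22.0, 20.04 and 17.8 FPKM for sh-Ptbp1-7d, and the 3 groups overlapped (log2 fold change -0.12, limma adjusted p = 0.443, 95% interval 0.757- to 1.11-fold). GABPA (chromosome 21, 25734570 to 25772460) was at 7.72, 7.39 and 5.64 FPKM for sh-Luci-3d, 6.07, 6.40 and 6.59 FPKM for sh-Ptbp1-3d and 5.90, 5.07 and 5.78 FPKM for sh-Ptbp1-7d. It was lower in all 3 libraries of 7 days than in sh-Ptbp1-3d, but by little (log2 fold change -0.19, limma adjusted p = 0.255, 95% interval 0.722- to 1.07-fold). Its log2 fold change against sh-Luci-3d was -0.29 with a limma adjusted p of 0.0796, which became 0.00411 without sh-Luci-3d replicate 3. Exons of ELF1 share 167 bases with WBP4 and those of GABPA share 413 bases with ATP5PF, both on the opposite strand. For GABPA this is 7.61% of its exonic length, and ATP5PF averaged 60.9 FPKM for sh-Ptbp1-3d and 61.9 FPKM for sh-Ptbp1-7d. Exons of ELK3 share 209 bases with AC008149.1, also on the opposite strand and with no expression value at hand. Since the strand setting of the counting is not given in the sources used here, reads of these genes may not be fully separated.

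The members outside the PEA3 group therefore gave no rise past the fold threshold. The lower ends of the 95% intervals over sh-Ptbp1-3d were 10.3-fold for ETV5, 6.10-fold for ETV1 and 4.65-fold for ETV4, whereas the highest upper end of the other 7 members was 1.51-fold, for ELK1. The median log2 fold change was 2.96 in the 3 PEA3 genes and -0.19 in the other 7, beside 0.09 for all genes tested. Both thresholds were passed upward by 3 of 3 and 0 of 7 of them, beside 8.31% of all genes tested. The 0 of 7 is thus near the share of all genes, and the 3 were picked by the study from these libraries.

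**Figure D2:**
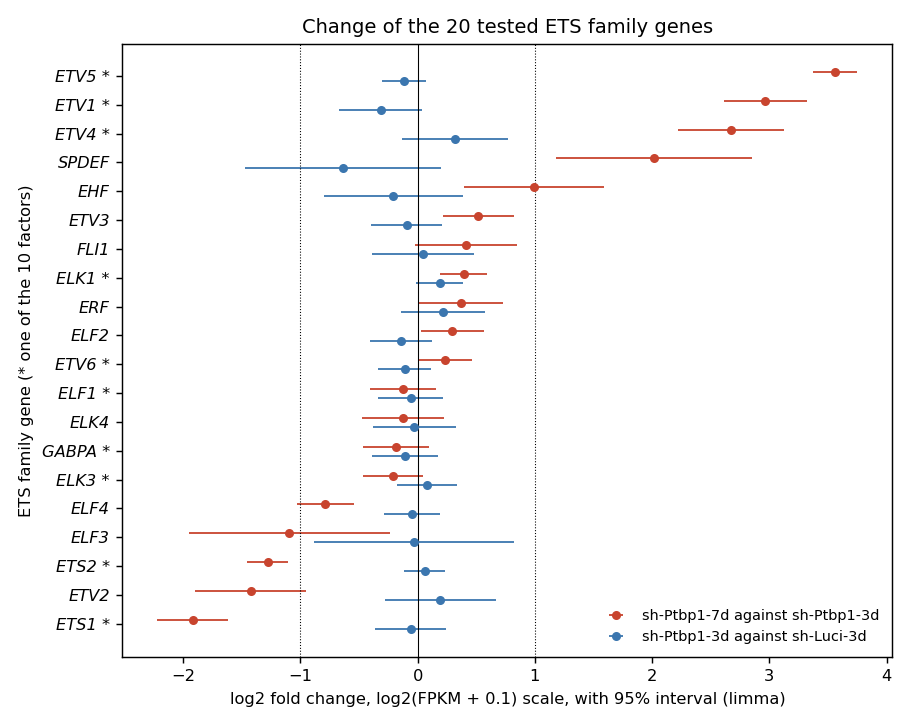
Log2 fold change on the log2(FPKM + 0.1) scale with its 95% interval from limma (3 libraries per group) for the 20 tested ETS family genes, with sh-Ptbp1-7d compared to sh-Ptbp1-3d in red and sh-Ptbp1-3d against sh-Luci-3d in blue. Dotted lines mark the fold threshold of 2. In the comparison at 7 days ETV5, ETV1, ETV4 and SPDEF lie to the right of them and ETS1, ETV2, ETS2 and ELF3 to the left, of which ELF3 did not pass the FDR, and all intervals at 3 days include 0.

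The other 18 genes of the family were read in the same way, of which 10 were expressed highly enough to be tested. At 7 days against sh-Ptbp1-3d 1 of these 10 passed both thresholds upward and 1 downward, and 2 and 2 passed the FDR alone, beside 8.31%, 5.90%, 20.3% and 15.5% of all genes, so that these shares were near those of all genes. The gene past both thresholds upward was SPDEF, an epithelial factor that was scarce throughout. It was at 0.0765, 0.0578 and 0.239 FPKM for sh-Luci-3d, 0.0506, 0 and 0.0679 FPKM for sh-Ptbp1-3d and 0.414, 0.549 and 0.398 FPKM for sh-Ptbp1-7d. Its mean over the 6 libraries of 3 days was 0.0820 FPKM, under the minimum of 0.1, so that it entered the tested genes only through sh-Ptbp1-7d, where it was high, and its call supports nothing about the family. Its log2 fold change was 2.01, and 0.48 with a pseudocount of 1, and against sh-Luci-3d it missed the FDR threshold (limma adjusted p = 0.0111) but passed without sh-Luci-3d replicate 3 (adjusted p = 0.00335). The gene that fell was ETV2, a factor of early vessel and blood development, at 3.54, 4.69 and 5.94 FPKM for sh-Luci-3d, 4.96, 6.80 and 4.42 FPKM for sh-Ptbp1-3d and 1.57, 2.03 and 2.20 FPKM for sh-Ptbp1-7d (log2 fold change -1.42, limma adjusted p = 0.000287).

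Smaller changes were seen in ELF4 and ETV3. ELF4 fell from 13.1, 14.01 and 12.7 FPKM to 6.87, 8.56 and 7.62 FPKM from 3 to 7 days of knockdown (log2 fold change -0.79, limma adjusted p = 0.000154). ETV3, a repressor, was at 4.06, 4.72 and 4.17 FPKM and then at 6.61, 7.18 and 5.04 FPKM (log2 fold change 0.52, limma adjusted p = 0.00937), and it missed the FDR threshold in 12 of 20 alternatives. Among these were the fits without any 1 of the sh-Ptbp1-3d libraries and without sh-Ptbp1-7d replicate 1 or 2, sh-Luci-3d replicate 1 or sh-Luci-3d replicate 2, and its highest adjusted p was 0.0464. ERF, a repressor that ERK removes from the nucleus, was the second most abundant ETS factor at 7 days with 31.7, 28.4 and 28.6 FPKM, against 25.0, 21.3 and 22.4 FPKM in sh-Ptbp1-3d. It did not pass the FDR (log2 fold change 0.37, limma adjusted p = 0.0776) except without sh-Luci-3d replicate 3 (adjusted p = 0.00289) and in the fit of both groups alone (adjusted p = 0.00431). FLI1, ELK4 and ELF2 did not pass either, with log2 fold changes of 0.41, -0.13 and 0.30. The epithelial factors EHF and ELF3, named after their values were seen, were scarce and did not pass the FDR, but moved more. EHF was at 0.222, 0.267 and 0.164 FPKM for sh-Ptbp1-3d and 0.467, 0.457 and 0.676 FPKM for sh-Ptbp1-7d, with no overlap (log2 fold change 0.99, limma adjusted p = 0.0105). ELF3 was at 0.142, 0.410 and 0.160 FPKM and then at 0.0533, 0.0452 and 0.0488 FPKM (log2 fold change -1.09, limma adjusted p = 0.0366). ETV3L, SPI1, SPIC and ELF5 were listed at 0 in all 9 libraries.

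As a result of these changes the family was differently composed at 7 days. Summed over the 28 ETS genes, the libraries held 171, 175 and 164 FPKM for sh-Luci-3d, 174, 174 and 168 FPKM for sh-Ptbp1-3d and 204, 198 and 186 FPKM for sh-Ptbp1-7d. ETV1, ETV4 and ETV5 made up 3.51%, 3.98% and 4.07% of this sum in sh-Luci-3d, 3.43%, 3.40% and 3.54% in sh-Ptbp1-3d and 31.4%, 31.1% and 31.6% in sh-Ptbp1-7d. The share was thus nearly equal between the 3 libraries of each group and did not overlap between 3 and 7 days. ETS1 and ETS2 together made up 30.8% ± 1.21, 30.9% ± 0.515 and 9.86% ± 0.254 in the order of the groups (SD, n = 3 each). Without the PEA3 group the family summed to 166 ± 3.46 FPKM for sh-Ptbp1-3d and 134 ± 6.66 FPKM at 7 days (SD, n = 3 each). These shares follow from the values given above and were not tested again.

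**Figure D3:**
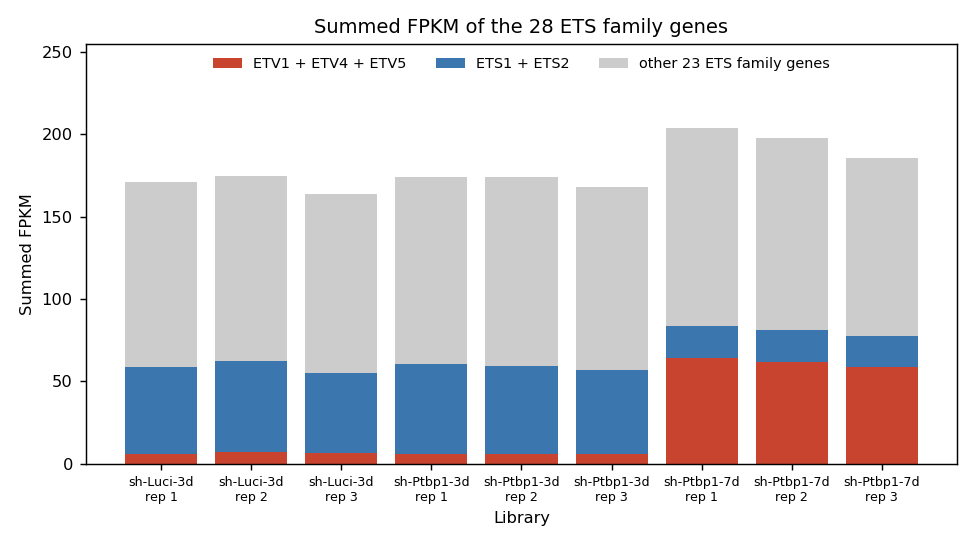
Summed FPKM of the 28 ETS family genes in each of the 9 libraries, split into ETV1, ETV4 and ETV5 (red), ETS1 and ETS2 (blue) and the other 23 genes (grey). The red segment is 5.91 to 6.95 FPKM in the 6 libraries of 3 days and 58.8 to 63.9 FPKM in the 3 libraries of 7 days.

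The order of the levels changed accordingly. ETS2 was first, ETS1 in place 4, ETV5 in place 14, ETV1 in place 15 and ETV4 in place 17 of the 28 genes in both 3-day groups. In sh-Ptbp1-7d ETV5 was first and did not overlap with ERF, the next gene. ETS2 and ETV1 took places 5 and 6 with overlapping libraries, ETV4 took place 12 and overlapped with GABPA above it, and ETS1 took place 14, where it overlapped with ELK4 and ETV6 on either side. Among all genes tested the mean level of ETV5 moved from percentile 40.7 to percentile 90.1 from 3 to 7 days of knockdown. The ratio of ETV5 to ETS2 was 0.0895, 0.0961 and 0.103 in sh-Ptbp1-3d and 2.99, 2.90 and 2.61 in sh-Ptbp1-7d, a pair chosen for its difference and given with no test.

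Within the PEA3 group the 3 genes kept their order, with ETV5 above ETV1 and ETV1 above ETV4 in all 9 libraries. ETV5 was 1.87-, 2.33- and 1.87-fold above ETV1 for sh-Ptbp1-3d and 2.69-, 3.50- and 2.78-fold above it in the sh-Ptbp1-7d libraries, so that the distance between them was wider at 7 days. Over ETV4 the ratio was 4.02, 4.42 and 5.47 and then 8.08, 8.03 and 7.5, again with no overlap, although in sh-Luci-3d, at 8.19, 7.64 and 4.37, it covered the 7-day range.

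The genes whose profile over the 9 libraries came closest to each PEA3 gene were searched by Euclidean distance of log2(FPKM + 0.1), centred on sh-Luci-3d, among 11339 genes with a symbol and a mean of at least 1 FPKM. For ETV5 these were SPRY1, an inhibitor of receptor tyrosine kinase signaling, at a distance of 0.351, SEMA6A at 0.451 and HLA-E at 0.474. For ETV1 they were PDZD2 at 0.61, IFITM2 at 0.655 and CSF1 at 0.671. For ETV4 they included the histone genes H4C15 at 0.477 and H2AC18 at 0.521. The PEA3 genes themselves were farther from each other, at distances of 1.29 between ETV4 and ETV5, 1.48 between ETV1 and ETV4 and 1.53 between ETV1 and ETV5. Since distance sums over all libraries, it is governed by the size of the 7-day step and by the scatter of low genes.

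The surroundings of the PEA3 group were described by gene lists. Of 12 regulators and cofactors, 0 passed both thresholds at 7 days compared to sh-Ptbp1-3d, beside 8.31% of all genes upward and 5.90% downward. By the FDR alone 2 were higher and 3 lower, near the 20.3% and 15.5% of all genes. In limma 6 had an unadjusted p under 0.05, where 8751 of all 15551 genes tested did so. The median log2 fold change of the list was 0.09, the same as over all genes. CIC, the repressor of the group, was at 27.6, 24.8 and 22.9 FPKM for sh-Ptbp1-3d and 27.6, 25.1 and 30.1 FPKM for sh-Ptbp1-7d, and its libraries overlapped (log2 fold change 0.14, limma adjusted p = 0.316). MAPK3, which encodes ERK1, fell from a mean of 31.9 to 21.4 FPKM (log2 fold change -0.58, limma adjusted p = 0.000533). CUL4A, part of the ubiquitin ligase that degrades PEA3 proteins, fell from 24.5 to 16.4 FPKM (log2 fold change -0.57, limma adjusted p = 0.000699). The coactivators EP300 and CREBBP were higher, with log2 fold changes of 0.58 (limma adjusted p = 0.00275) and 0.44 (limma adjusted p = 0.00749), and they missed the threshold in 4 and 10 of 20 alternatives. For both genes these included the fits without sh-Ptbp1-3d replicate 3 (adjusted p = 0.0163 and 0.0313), without sh-Ptbp1-7d replicate 1 (0.0138 and 0.0334) and without sh-Ptbp1-7d replicate 2 (0.0157 and 0.0369). For CREBBP they also included those without sh-Luci-3d replicate 2 (0.0106), sh-Ptbp1-3d replicate 1 (0.0239) and sh-Ptbp1-3d replicate 2 (0.0189).

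Most of the genes that are read as output of ERK signaling, or that CIC represses, were higher at 7 days. Of 17 such genes, 11 passed both thresholds upward and 0 downward, and 15 were higher by the FDR alone, beside 8.31%, 5.90% and 20.3% of all genes. The median log2 fold change was 1.17, beside 0.09 for all genes. Like the other lists, this list was chosen with earlier results of these data known, so its counts are not independent evidence. DUSP6, a phosphatase that inactivates ERK, was at 1.03, 0.657 and 0.714 FPKM for sh-Ptbp1-3d and 11.7, 12.5 and 13.2 FPKM for sh-Ptbp1-7d (log2 fold change 3.82, limma adjusted p = 9.16e-08). SPRY4, a feedback inhibitor of the pathway, went from 1.98, 1.85 and 2.06 FPKM to 29.5, 27.9 and 24.8 FPKM (log2 fold change 3.73, limma adjusted p = 7.49e-08). The log2 fold changes were 3.53 for its relative SPRY1 and 2.73 for the phosphatase gene DUSP4. The 2 genes that did not pass were PHLDA1, at -0.02, and VGF, at 0.40. At 3 days 0 of the 17 genes passed the FDR, beside 0.0322% of all genes. In limma 1 of the 17 had an unadjusted p under 0.05, where 1126 of all 15551 genes tested did so. These counts were near those of all genes.

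Targets assigned to the other ETS factors gave a mixed picture. The counts below compare sh-Ptbp1-7d to sh-Ptbp1-3d, where 8.31% of all genes passed both thresholds upward and 5.90% downward. By the FDR alone the shares of all genes were 20.3% higher and 15.5% lower. Of 10 tested targets of SRF and the ternary complex factors, 3 passed both thresholds upward and 0 downward, and 5 were higher by the FDR alone, with a median log2 fold change of 0.57. They were led by the immediate early genes FOS (log2 fold change 2.45, limma adjusted p = 0.000511), EGR1 (2.41, limma adjusted p = 4.82e-07) and EGR2 (2.17). EGR2 averaged 0.0350 FPKM over the 6 libraries of 3 days and was tested only through its level at 7 days, so its call is no support, and 2 genes past both thresholds remain without it. The 5 genes by the FDR alone and the median of 0.57 include EGR2. JUNB, at 0.88, passed the FDR alone. FOS reached no more than 3.08 FPKM and EGR2 no more than 0.93 FPKM in any library. Of 16 genes described as targets of ETS1, ETS2 or the PEA3 group in invasion and vessel growth, 9 were tested, of which 1 rose and 3 fell past both thresholds and 3 and 3 passed the FDR alone, with a median of -0.24. The matrix protease MMP2 rose from 25.0 ± 1.0 to 127.7 ± 1.20 FPKM (SD, n = 3 each, log2 fold change 2.35, limma adjusted p = 3.21e-09). The integrin ITGAV, the protease PLAU and the receptor MET fell by 1.59, 1.30 and 1.22 on the log2 scale. Of 10 partners and targets of GABP, 0 passed in either direction, with a median of -0.004. In limma 1 of them had an unadjusted p under 0.05, where 8751 of all 15551 genes tested did so. Of these, GABPB2 was at 0.69 (limma adjusted p = 0.0165), TFB1M at -0.24, COX4I1 at -0.22 and NRF1 at 0.20. Interferon-stimulated genes, a list outside the ETS pathways, passed both thresholds upward in 9 of 10 cases, with a median of 2.25 and the largest values for IFI6 (3.81), IFIT2 (3.42), OAS1 (2.79) and MX1 (2.5).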

How the data were processed

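Total RNA of 9 U251 samples was sequenced on Illumina HiSeq. After filtering and alignment the authors deposited FPKM values for 19932 gene symbols and 2363 loci assembled with StringTie, whose positions they gave in a further table. HISAT2 and GRCh38 are named in the submitters' processing notes, and the counting program is not given in the sources used here. Among 944 low genes the commonest ratio between libraries was shared by 1.17%, so whole reads could not be recovered and the depth is unknown. No column of per-sample values was left unused.

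Samples were grouped by their titles. Genes averaging 0.1 FPKM or more (15551) were taken as log2(FPKM + 0.1) and fitted with limma (version 3.58.1, R 4.3.3, 3 groups in one model, intensity trend), and the Benjamini-Hochberg adjustment covered all of them. The thresholds followed the study, with an FDR of 0.05 at 3 days and 0.01 at 7 days. The members, gene lists and motifs were chosen with earlier results of these data known. Named were all members, other ETS genes with a group mean of at least 1 FPKM or past the thresholds, the 4 largest changes of each list, and the 3 genes most like each PEA3 gene, of which 1 is not reported here. Other genes were named after their values were seen. Positions are from GENCODE 29 and promoters from RefSeq. Figures were drawn with matplotlib 3.10.9.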

Additional observations from a re-analysis of the deposited data

How the results depend on the processing

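The number of members past both thresholds was 0 at 3 days and, at 7 days, 5 relative to sh-Ptbp1-3d and 5 relative to sh-Luci-3d, in each of 20 alternatives per comparison. The alternatives were other pseudocounts (1 and 0.01), other filters (none, or 1 FPKM on average), other scalings (TPM, median-ratio, quantile), a table without mitochondrial genes and assembled loci, no intensity trend, fits of only the 2 groups compared, a replicate block and the removal of each library. With the replicate block the counts were 0, 5 and 5, and the adjusted p of PTBP1 at 3 days was 0.0583. Deviations of libraries with the same number correlated between -0.032 and 0.051, and those with different numbers between -0.073 and 0.061. A pairing by number was thus not detected, but such correlations cannot exclude that samples were handled together. Log2 fold changes of 3 member genes turned their sign, none of them called. That of ELK3 at 3 days ranged from -0.0081 (without sh-Luci-3d replicate 3) to 0.196 over the removals of 1 library, that of ELF1 at 3 days ranged from -0.196 to 0.0347 (without sh-Luci-3d replicate 1), and that of ETV6 at 7 days relative to sh-Luci-3d became -0.0412 with quantile normalization. The cause was not tested. Scaling moved the median of all genes at 7 days against sh-Ptbp1-3d from 0.0924 to 0.195 with TPM, 0.0102 with median-ratio scaling and -0.0087 with quantile normalization. Without counts, no counting error can be given, and 3 libraries a group limit the precision.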
